A study of Rattus norvegicus with 372 samples.

Results

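The comparison set hepatocytes treated with 10000 µM caffeine against hepatocytes treated with 200 µM WY14643, to describe which part of the peroxisome and fatty acid response to this peroxisome proliferator was shared by caffeine and which changes were seen with caffeine and not with WY14643. Its members were chosen by chemical and concentration, within each batch, in the whole transcriptome (WT) assay. They were 12 of the 186 WT wells of the series, with 3 wells per chemical in each of the 2 batches, and 9 WT vehicle wells served as reference. All cells were primary hepatocytes of male Wistar rats, kept between layers of collagen in medium with insulin and dexamethasone, and exposed for 24 h in 0.5% DMSO, which the vehicle wells received alone. Each batch used the freshly isolated cells of 1 rat, so wells of a chemical within a batch are repeats of 1 animal, and only the batches repeat the animal. The tests within a batch therefore measure the spread between wells, and a gene is said to differ, rise or fall when its Benjamini-Hochberg adjusted p by the quasi-likelihood test of edgeR was under 0.05 with one sign in both batches. The concentrations are the higher of 2 for each chemical and are not matched. In batch 1 caffeine was on plate 4 and WY14643 on plate 5, and in batch 2 they were on plates 2 and 3, so plate and chemical cannot be told apart in the direct comparison. The vehicle wells of batch 1 were all on plate 4, so WY14643 against vehicle in that batch was also a comparison between plates, which cannot be told apart from the chemical, while caffeine and vehicle shared a plate.

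WY14643 activates PPARα, a nuclear receptor that pairs with RXR and binds direct repeats of a short core motif near its target genes. In rat liver these targets include the enzymes of peroxisomal beta oxidation, the Cyp4a omega hydroxylases, acyl-CoA thioesterases and the carnitine shuttle, and rodent peroxisomes multiply under such agonists. Caffeine is a methylxanthine that blocks adenosine receptors and, at high concentrations, inhibits phosphodiesterases, which break down cAMP. In hepatocytes cAMP raises genes of glucose production such as Pck1 and G6pc, which insulin lowers.

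In TempO-Seq a read stands for a pair of detector oligos ligated on a transcript, so levels are compared between wells and not between genes. Levels are given as CPM, the counts of a gene scaled to a common library total after TMM normalization, and differences as log2 fold changes (L2FC), with standard errors after ±. Where values or L2FC are given in pairs without a batch, the first is of batch 1 and the second of batch 2. The 12 WT wells held 5194574 to 8667331 reads and the vehicle wells 5492941 to 8264980, and 10191 of 20946 genes passed the filter on low counts. The 11 hepatocyte markers measured were detected in every group, and together they made up 23900 to 29000 CPM with caffeine, 48100 to 51500 CPM with WY14643 and 34600 to 40700 CPM with vehicle in batch 1. In batch 2 the ranges were 18300 to 27400, 42000 to 46800 and 40000 to 46900 CPM. Their sum was thus lower with caffeine than in the other wells of each batch. The list includes Fabp1, which rose with WY14643 by an L2FC of 7.75 and 7.7 and fell with caffeine (-2.48 and -0.97). The sums with WY14643 therefore hold a response to that chemical. The median L2FC over all genes tested was -0.004 in batch 1 and 0.017 in batch 2 for caffeine against WY14643.

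Caffeine and WY14643 gave different transcriptomes in both rats. In batch 1, 5054 genes differed between them (49.6% of the genes tested), and in batch 2 the number was 5869 (57.6%). In both batches 1929 genes (18.9%) were higher with caffeine and 2071 (20.3%) were higher with WY14643. Against vehicle, caffeine raised 2213 genes (21.7%) and lowered 2088 (20.5%), while WY14643 raised 1536 (15.1%) and lowered 1418 (13.9%). Those comparisons use the same vehicle wells, so their values are set side by side and their agreement is not counted. In batch 2 each chemical had 3 vehicle wells on its own plate, and the changes could be counted on wells that are not shared. There 834 genes were higher with both chemicals (8.18% of those tested), which was 26.6% of the 3130 genes raised by caffeine and 39.2% of the 2126 raised by WY14643. Another 1043 genes (10.2%) were lower with both, which was 38.4% and 49.3% of the 2716 and 2114 genes lowered. In opposite directions, 428 genes (4.2%) were higher with caffeine and lower with WY14643, and 436 (4.28%) the reverse. Between the vehicle wells of those 2 plates edgeR called 0 genes after adjustment. At an unadjusted p under 0.05 there were 1409 of 10191 genes, more than the 1 in 20 that chance alone gives. The 0 calls therefore do not show that the plates were alike.

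Caffeine shared part of the peroxisome and fatty acid response, and mostly at smaller size. Of 121 genes in 7 lists of peroxisomal, omega and mitochondrial oxidation, thioesterases, ketone body synthesis and lipid droplets, 106 had a probe and 89 were tested, the others lying below the filter. WY14643 raised 73 of them and lowered 1, Pdk3, and caffeine raised 47 and lowered 10. Of all genes tested, WY14643 raised 15.1% and lowered 13.9%, and caffeine raised 21.7% and lowered 20.5%. Against the vehicle wells of their own plates in batch 2, 47 of the 89 genes were higher with both chemicals, against 8.18% of all genes. Of those 47 genes, 35 were lower with caffeine than with WY14643, 2 were higher and 10 did not pass the direct comparison. Over all genes, 151 of the 834 higher with both were lower with caffeine than with WY14643, 206 were higher and 477 did not pass. On the same wells 17 genes were higher with WY14643 without a call for caffeine, and 11 were higher with WY14643 and lower with caffeine. In the direct comparison 61 of the 89 were lower with caffeine and 4, among them Pex14, Pdk2 and Pnpla2, were higher, against 20.3% and 18.9% of all genes. The median L2FC of caffeine against WY14643 over the list was -1.65 and -1.74 in batches 1 and 2.

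**Figure D1:**
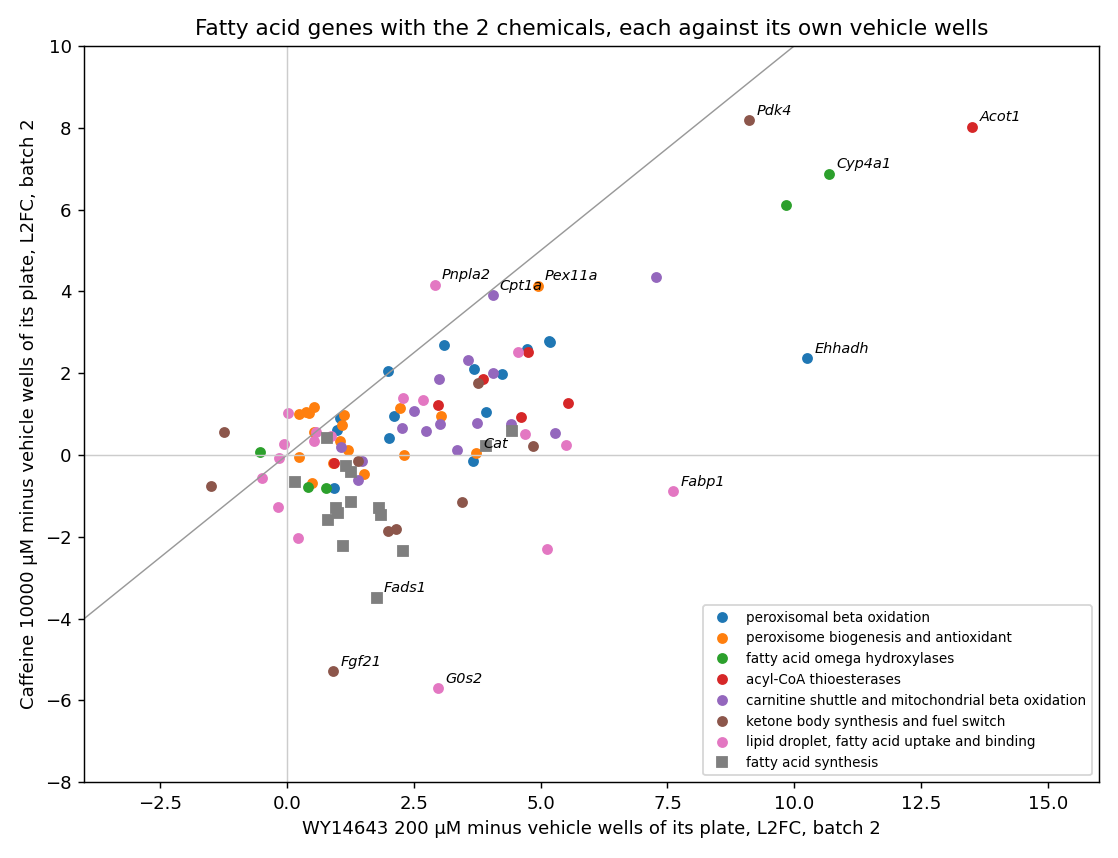
Each point is a gene of the 7 lists or of fatty acid synthesis in batch 2, with the L2FC of WY14643 on the horizontal axis and that of caffeine on the vertical axis, each against the 3 vehicle wells of its own plate, and the grey diagonal marks equal change. Most oxidation genes lie to the right of the diagonal, Pdk4, Cpt1a and Pex11a lie near it, Pnpla2 lies above it, and Fabp1, Fgf21, G0s2 and Fads1 lie below 0 for caffeine and above 0 for WY14643. Acot1 and Pdk4 had at most 3 counts in each vehicle well, so their positions on both axes depend on the prior count of the fit.

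Peroxisomal beta oxidation, which shortens very long and branched fatty acids, rose with both chemicals. WY14643 raised all 15 genes tested of this list, caffeine raised 11 of the 15, and 12 were lower with caffeine than with WY14643, against 15.1%, 21.7% and 20.3% of all genes. Ehhadh, the bifunctional enzyme of the pathway, was far apart between the chemicals. Its caffeine wells held 9.83, 13.0 and 11.1 CPM in batch 1 and 6.72, 9.80 and 8.53 CPM in batch 2, against 2375, 2211 and 2957 CPM and 1959, 2083 and 2050 CPM with WY14643. The vehicle wells held 2.91, 1.90 and 0.799 CPM and 0.727 to 2.52 (median 1.63) CPM. Caffeine thus raised Ehhadh above every vehicle well, by an L2FC of 2.52 and 2.35, while WY14643 raised it by 10.31 and 10.28. Acaa1a, the thiolase that closes the cycle, rose by 0.90 and 0.80 with caffeine and by 2.55 and 2.26 with WY14643. Its direct L2FC was -1.65 and -1.46 in WT and -4.53 and -5.27 in ST, the smaller assay of the same lysates, so its size depended on the assay. Hacl1 and Phyh, which act on branched fatty acids, rose with caffeine (L2FC 2.49 and 2.93 for Hacl1, and 2.63 and 2.57 for Phyh) and with WY14643 (4.86 and 5.01 for Hacl1, and 3.00 and 3.19 for Phyh). For Phyh the direct difference between the chemicals did not pass in both batches (L2FC -0.36 and -0.62, 95% intervals -0.69 to -0.032 and -0.95 to -0.29). Crat and Crot, acyltransferases that move shortened chains out of the peroxisome, were lower with caffeine than with WY14643 (direct L2FC -2.92 and -3.15 for Crat, and -3.55 and -3.73 for Crot). Crot rose with WY14643 (4.16 and 3.63), and its values with caffeine were 0.60 and -0.11.

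The omega hydroxylases Cyp4a1 and Cyp4a2, which oxidize the far end of fatty acids, rose with both chemicals. With caffeine, Cyp4a1 was at 314, 332 and 297 CPM in batch 1 and 160.2, 208 and 167 CPM in batch 2. WY14643 wells held 3750, 3701 and 4039 CPM and 2807, 3208 and 3191 CPM, and vehicle wells 1.05, 1.55 and 2.24 CPM and 0.850 to 2.37 (median 1.69) CPM. The L2FC of Cyp4a1 against vehicle was 7.63 and 6.72 with caffeine and 11.24 and 10.83 with WY14643, and the direct L2FC of caffeine against WY14643 was -3.61 and -4.11. Cyp4a2 went the same way, with 6.59 and 5.95 for caffeine and 10.59 and 9.98 for WY14643. Cyp4a1 and Cyp4a2 are close paralogs, and how reads of their probes were separated was not tested. Cyp4v3 fell with caffeine (-0.25 and -0.75) and rose with WY14643 (0.71 and 0.69). Over the 5 genes tested, 2 rose and 1 fell with caffeine, and 3 rose with WY14643, against 21.7%, 20.5% and 15.1% of all genes, so the fall was at the share of all genes.

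Acyl-CoA thioesterases release fatty acids from coenzyme A. WY14643 raised all 7 tested and caffeine 6, and all 7 were lower with caffeine (of all genes 15.1%, 21.7% and 20.3%), with a median L2FC of -2.55 and -2.17. Acot1, the cytosolic form, was at 4.72, 4.28 and 2.88 CPM with caffeine in batch 1 and 3.93, 4.37 and 5.29 CPM in batch 2. WY14643 brought it to 895, 935 and 1068 CPM and 784, 836 and 730.1 CPM. No vehicle well had more than 3 counts of it, so only bounds are given, computed against 3 counts per well. Acot1 was at least 8.83-fold higher with caffeine and at least 2150-fold higher with WY14643 in batch 1, and at least 10.2-fold and 1760-fold higher in batch 2. The direct L2FC of Acot1 in batch 2 was -7.43, and against own-plate vehicle it was -5.49 and did not pass (adjusted p 0.941 by edgeR), a fitted value that depends on the prior count. The mitochondrial Acot2 rose by 2.68 and 2.65 with caffeine and by 5.24 and 4.62 with WY14643. Acot3, Acot4 and Acot7 were lower with caffeine than with WY14643 (direct L2FC -3.03 and -3.33 for Acot3, -4.74 and -4.82 for Acot4, and -2.24 and -2.17 for Acot7).

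Among peroxisome biogenesis and antioxidant genes, both chemicals raised Pex11a and only WY14643 passed for catalase. Pex11a, which elongates peroxisomes before they divide, was at 34.2, 28.0 and 28.8 CPM with caffeine in batch 1 and 33.4, 52.5 and 40.0 CPM in batch 2. It was at 51.0, 59.8 and 75.2 CPM and 90.7, 86.6 and 88.7 CPM with WY14643, and at 1.98, 1.38 and 1.28 CPM and 1.93 to 3.40 (median 2.58) CPM with vehicle. Within each batch the caffeine wells lay above all vehicle wells and below all WY14643 wells, with a direct L2FC of -1.03 and -1.08. Cat, the catalase that removes the hydrogen peroxide made in peroxisomes, was at 612, 614 and 609.8 CPM with caffeine in batch 1 and 454, 505 and 567 CPM in batch 2. With WY14643 it was at 5497, 5245 and 5432 CPM and 5531, 6292 and 5230 CPM, and with vehicle at 490.5, 525 and 502 CPM and 406 to 519 (median 450.4) CPM. The L2FC of Cat against vehicle was 0.28 and 0.15 with caffeine, which did not pass in both batches, and 3.41 and 3.63 with WY14643. The caffeine wells of Cat lay above the vehicle wells in batch 1 and overlapped them in batch 2. Of the 18 genes tested, WY14643 raised 14 and caffeine raised 8 and lowered 1, Pex7, against 15.1% of all genes raised by WY14643 and 21.7% raised and 20.5% lowered by caffeine. Pex26, of the machinery that recycles the import receptor, rose with caffeine (0.93 and 1.12) and with WY14643 (0.95 and 0.98). Mlycd, which breaks down malonyl-CoA, and the membrane protein gene Pxmp2 were lower with caffeine than with WY14643 (-2.41 and -2.12 for Mlycd, and -1.92 and -2.13 for Pxmp2).

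Mitochondrial oxidation rose with WY14643 and in part with caffeine. WY14643 raised all 16 genes tested of the carnitine shuttle and mitochondrial beta oxidation, caffeine raised 11, and 15 were lower with caffeine, with 15.1%, 21.7% and 20.3% over all genes. Cpt1a, the carnitine transferase that gates entry to the mitochondrion, was at 41.0, 42.0 and 52.0 CPM with caffeine in batch 1 and 53, 63.5 and 53.1 CPM in batch 2. Its WY14643 wells held 88.6, 84.1 and 80.4 CPM and 77.3, 75.1 and 74.1 CPM, and its vehicle wells 7.33, 6.55 and 3.52 CPM and 3.26 to 4.82 (median 4.17) CPM. The caffeine wells lay above all vehicle wells and below all WY14643 wells. The direct difference passed in batch 1 and not in batch 2, with an L2FC of -0.91 (95% interval -1.39 to -0.42) in batch 1 and -0.42 (-0.86 to 0.023) in batch 2. Slc22a5, a carnitine importer, rose by 3.12 and 2.47 with caffeine and by 3.83 and 3.39 with WY14643, and Cpt1b, the muscle form of that transferase, by 3.73 and 4.00 and by 7.04 and 7.56. Acadm, a medium chain acyl-CoA dehydrogenase, was at 73.5, 68.5 and 91.4 CPM with caffeine in batch 1 and 62.8, 102 and 99.9 CPM in batch 2, overlapping the vehicle wells at 92.2, 79.8 and 71.3 CPM and 72.1 to 108 (median 91.8) CPM. WY14643 wells held 1043, 1158 and 1104 CPM and 1109, 1073 and 942 CPM of it. Acaa2, the mitochondrial thiolase, rose by 0.92 and 0.58 with caffeine and by 5.38 and 5.25 with WY14643.

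Genes of ketone body synthesis and fuel choice did not move as a group with caffeine. Pdk4, a kinase that shuts off pyruvate oxidation, was at 25.9, 37.5 and 21.9 CPM with caffeine in batch 1 and 78.2, 58.7 and 46.9 CPM in batch 2. With WY14643 it was at 78.9, 72.5 and 70.1 CPM and 75.1, 114 and 87.8 CPM, and no vehicle well had more than 3 counts. In batch 1 the caffeine wells lay below the WY14643 wells and in batch 2 the groups overlapped, with an L2FC of -1.37 (95% interval -1.83 to -0.92) and -0.59 (-1.15 to -0.031). Against vehicle it was at least 63.4-fold and 138-fold higher with caffeine and at least 165-fold and 208-fold higher with WY14643. The acetyl-CoA thiolase gene Acat1 (L2FC 0.23 and 0.10 with caffeine, 5.27 and 4.96 with WY14643) passed with WY14643 and not with caffeine.

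Fgf21, a fasting hormone of the liver and a known PPARα target, moved in opposite directions. It was at 3.21, 3.50 and 1.55 CPM with caffeine in batch 1 and 1.14, 0.530 and 0.882 CPM in batch 2, at 98.0, 110.4 and 128 CPM and 91.7, 81.7 and 73.8 CPM with WY14643, and at 43.3, 57.1 and 31.0 CPM and 26.9 to 52.0 (median 38.1) CPM with vehicle. Every caffeine well lay below, and every WY14643 well above, the vehicle wells of its batch, and the direct L2FC was -5.31 ± 0.32 and -6.56 ± 0.30. The ketone body dehydrogenase Bdh1, the monocarboxylate carrier Slc16a1 and the mitochondrial carrier Ucp2 fell with caffeine (-1.34 and -1.72 for Bdh1, -1.21 and -1.76 for Slc16a1, and -2.08 and -1.17 for Ucp2) and rose with WY14643 (2.35 and 1.84 for Bdh1, 2.46 and 2.09 for Slc16a1, and 3.67 and 3.48 for Ucp2). Over the list of 10 genes tested, caffeine raised 3 and lowered 5, and WY14643 raised 8 and lowered 1. Against shares over all genes of 21.7%, 20.5%, 15.1% and 13.9%, the rises with caffeine and the fall with WY14643 were near those of all genes. Pdk3 fell with both (L2FC -1.22 and -1.03 with caffeine and -1.24 and -1.28 with WY14643).

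**Figure D2:**
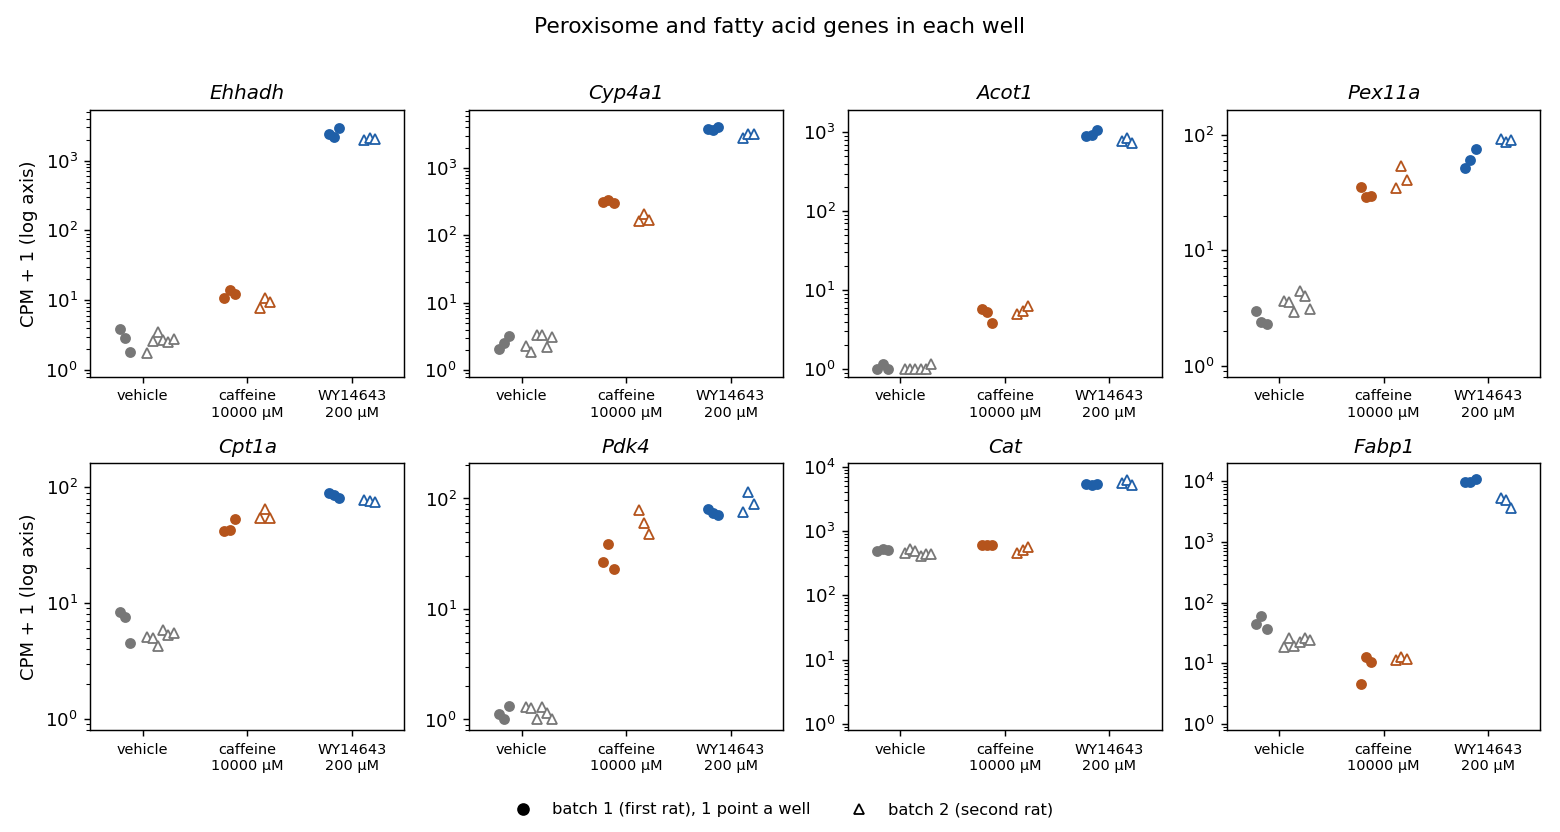
Each point is 1 well, with the level as CPM + 1 on a log axis that differs between panels, for vehicle, 10000 µM caffeine and 200 µM WY14643, filled circles for batch 1 and open triangles for batch 2. Caffeine lies between vehicle and WY14643 for Ehhadh, Cyp4a1, Acot1 and Pex11a, comes closer to WY14643 for Cpt1a and Pdk4, stays near vehicle for Cat, and lies below vehicle for Fabp1.

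Fabp1, the fatty acid binding protein of hepatocytes, fell with caffeine and rose with WY14643. Its caffeine wells held 3.59, 11.7 and 9.74 CPM in batch 1 and 10.5, 11.9 and 10.9 CPM in batch 2, its WY14643 wells 9536, 9507 and 10800 CPM and 5218, 4821 and 3645 CPM, and its vehicle wells 42.9, 59.7 and 36.3 CPM and 17.7 to 25.1 (median 22.3) CPM. Every caffeine well was below the vehicle wells of its batch, and the L2FC of caffeine against WY14643 was -10.23 ± 0.31 and -8.68 ± 0.32. That difference was smaller in batch 2, with an adjusted p of 0.00361 for the difference between the batches by edgeR. The 250 bases before the Fabp1 start are printed because they hold a repeat of the kind PPARα binds. They come from RefSeq on the rat build GRCr8, while the reads were aligned to rn6, and run 5′ to 3′ with the match in capitals, at bases -77 to -65 before the start and on the opposite strand.
Fabp1 chr4:104749090-104749339 (+ strand): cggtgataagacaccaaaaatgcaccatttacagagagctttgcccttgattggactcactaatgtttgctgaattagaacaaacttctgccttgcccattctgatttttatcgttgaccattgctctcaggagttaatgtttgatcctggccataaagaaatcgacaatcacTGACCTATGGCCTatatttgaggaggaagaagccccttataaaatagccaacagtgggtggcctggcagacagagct
The motif searched on both strands was AGGNCA, 1 base of any kind, and AGGNCA again. It was found in 123 of 33469 RefSeq promoters of the same length (0.368%), and among genes of the 7 lists with a promoter in that table in 1 of 100, which is Fabp1. A match is a description of the letters and does not show binding.

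Lipid droplet genes held members that caffeine raised and members that it lowered. Pnpla2, the lipase that starts triglyceride breakdown, was at 161, 227 and 254 CPM with caffeine in batch 1 and 307, 341 and 500.0 CPM in batch 2, against 129, 125 and 187 CPM and 250.1, 215 and 164 CPM with WY14643. The vehicle wells held 20.0, 18.3 and 13.3 CPM and 19.7 to 30.9 (median 24.2) CPM. The caffeine and WY14643 wells overlapped in batch 1 and did not overlap in batch 2, with a direct L2FC of 0.55 ± 0.22 and 0.87 ± 0.23, and the call was lost when any 1 of 4 of the 12 wells was left out. G0s2, the inhibitor of that lipase, went the other way. It was at 7.75, 6.42 and 5.98 CPM with caffeine in batch 1 and 1.01, 2.12 and 1.32 CPM in batch 2, and at 728, 780.2 and 785 CPM and 786, 718 and 681 CPM with WY14643. With vehicle it was at 116, 138 and 92.9 CPM and 72.1 to 99.3 (median 83.5) CPM, so G0s2 fell with caffeine and rose with WY14643 in every well. Hilpda, another inhibitor of the lipase, rose by 2.63 and 2.76 with caffeine and by 3.84 and 4.28 with WY14643. The droplet coat gene Plin2 and Fitm2, which helps droplets form, rose with caffeine (0.49 and 1.22 for Plin2, and 1.93 and 1.28 for Fitm2) and with WY14643 (2.80 and 2.79 for Plin2, and 2.59 and 2.41 for Fitm2). Fabp3 was at least 37.3-fold higher with WY14643 than with caffeine in batch 1 and at least 65.4-fold in batch 2, the caffeine wells holding at most 3 counts each. Of 18 genes tested, caffeine raised 6 and lowered 3, and WY14643 raised 10. The shares over all genes were 21.7%, 20.5% and 15.1%, so the falls with caffeine were near the share of all genes.

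Some genes rose with both chemicals without a direct difference that passed in both batches. Besides Phyh, Cpt1a, Pdk4 and Pex26, they included Acox2, the oxidase of branched chains, and Fitm2. For Acox2 the caffeine wells held 89.6, 101 and 91.9 CPM and 29.9, 49.7 and 42.1 CPM, the WY14643 wells 56.4, 50.02 and 61.0 CPM and 49.6, 51.6 and 50.05 CPM, and the vehicle wells 19.8, 22.9 and 14.7 CPM and 7.85 to 14.9 (median 11.2) CPM. Its direct L2FC had 95% intervals of 0.30 to 1.20 and -0.71 to 0.084, that of Pex26 -0.30 to 0.26 and -0.15 to 0.44, and that of Fitm2 -1.28 to -0.037 and -1.64 to -0.63. The caffeine wells of Acox2 lay above the WY14643 wells in batch 1 and overlapped them in batch 2. The intervals bound the difference between wells of a rat and do not show that the chemicals act alike.

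Genes of lipid synthesis were lower with caffeine than with WY14643. All 15 genes tested of fatty acid synthesis were lower with caffeine than with WY14643, against 20.3% of all genes. Against vehicle, caffeine lowered 10 of the 15, and WY14643 raised 12. Fads1, a desaturase that makes polyunsaturated fatty acids, was at 0.567, 0.584 and 1.11 CPM with caffeine in batch 1 and 0.507, 0.795 and 1.32 CPM in batch 2, at 37.3, 47.2 and 40.2 CPM and 38.3, 33.6 and 33.5 CPM with WY14643, and at 14.5, 13.4 and 11.3 CPM and 8.15 to 11.4 (median 10.2) CPM with vehicle. The groups did not overlap, with caffeine lowest and WY14643 highest. Srebf1, the transcription factor that drives this program under insulin, fell by an L2FC of 2.92 and 1.54 with caffeine and rose by 1.04 and 1.11 with WY14643. Scd and Elovl6, which desaturate and lengthen fatty acids, rose with WY14643 (3.78 and 4.16 for Scd, and 4.27 and 4.49 for Elovl6), and their values with caffeine were -1.03 and -0.045 for Scd, and -0.10 and 0.52 for Elovl6. In cholesterol synthesis and uptake 15 of 18 genes tested were lower with caffeine than with WY14643, 8 fell and 2 rose with caffeine, and 13 rose with WY14643, against 20.5%, 21.7% and 15.1% of all genes. Hmgcs1 and Idi1, of the mevalonate pathway, were lower with caffeine (direct L2FC -4.42 and -4.12 for Hmgcs1, and -2.76 and -3.10 for Idi1).

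**Figure D3:**
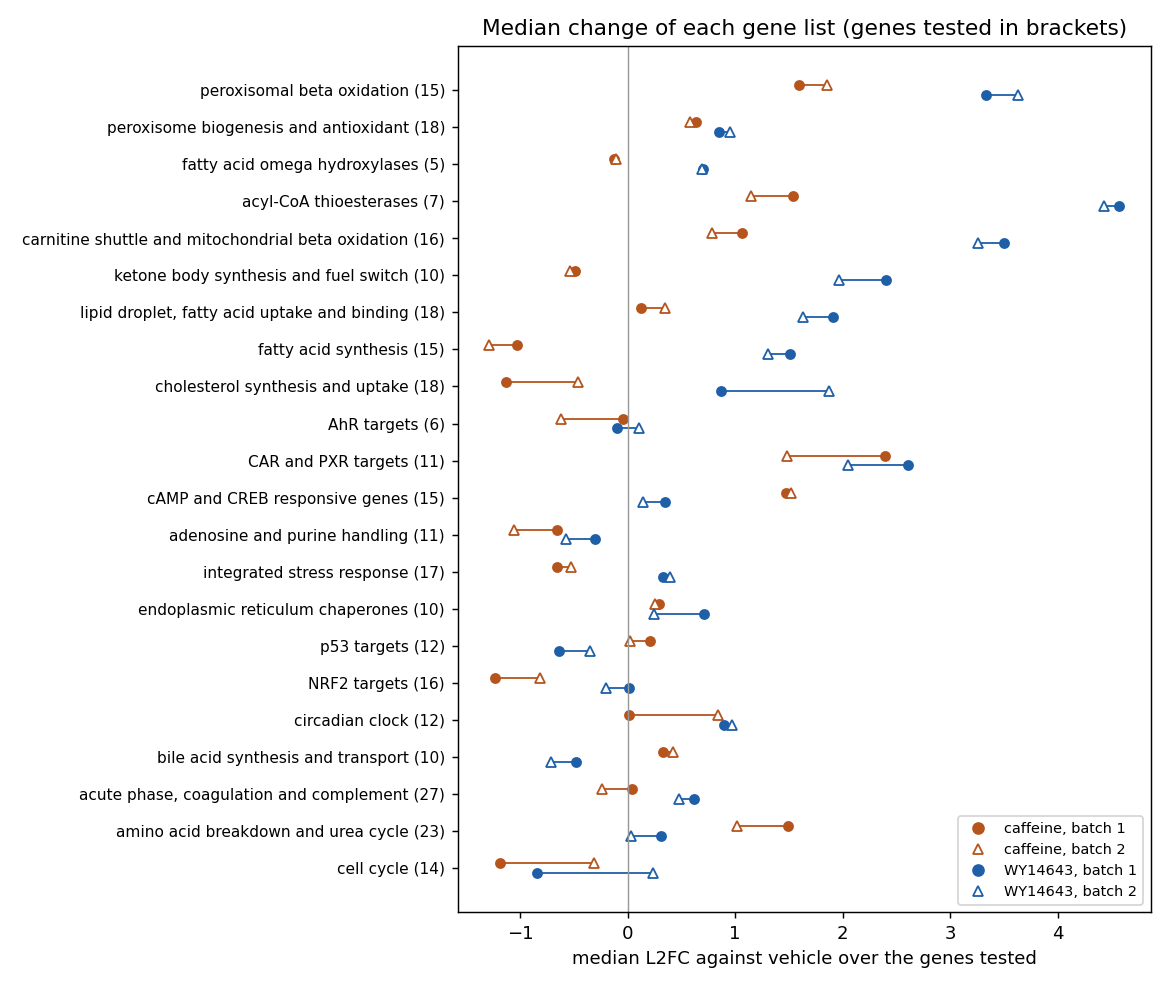
For each of the pathway lists the points give the median L2FC against vehicle over the genes tested, which are counted in brackets, for caffeine and WY14643 and for each batch, with a line joining the batches. The vehicle wells of a batch are shared by both chemicals. WY14643 lies to the right of caffeine in the oxidation and lipid synthesis lists, and caffeine lies to the right in the cAMP list and in amino acid breakdown.

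Pck1 and G6pc, which serve glucose production, rose with both chemicals and stood far higher with caffeine. Pck1, the enzyme that commits oxaloacetate to glucose, was at 4910, 5658 and 6441 CPM with caffeine in batch 1 and 5365, 7465 and 8523 CPM in batch 2. It was at 71.1, 70.5 and 71.9 CPM and 66.0, 78.4 and 85.0 CPM with WY14643, and at 3.84, 6.21 and 3.20 CPM and 2.67 to 5.95 (median 3.68) CPM with vehicle. Both chemicals raised it in every well, and caffeine was higher than WY14643 by an L2FC of 6.32 ± 0.25 and 6.54 ± 0.26. G6pc, which releases free glucose, was at 153, 198 and 210.3 CPM with caffeine in batch 1 and 273, 381 and 437 CPM in batch 2, and at 30.0, 19.8 and 34.1 CPM and 12.6, 20.6 and 20.3 CPM with WY14643. Its vehicle wells held 0.698, 0.172 and 0.320 CPM and 0.275 to 0.851 (median 0.513) CPM. The direct L2FC of G6pc was 2.74 and 4.35, larger in batch 2 (adjusted p of 0.00253 for the difference between batches by edgeR). Igfbp1, a binding protein of insulin-like growth factors that insulin represses, was at 23110, 22810 and 24310 CPM with caffeine in batch 1 and 16820, 21430 and 33780 CPM in batch 2. With WY14643 it was at 1782, 1685 and 2532 CPM and 2523, 2606 and 2472 CPM, and with vehicle at 708, 789 and 712 CPM and 1206 to 1824 (median 1564) CPM. Every caffeine well of Igfbp1 lay above every WY14643 well, and these above the vehicle wells of their batch. Irs2, an adaptor of the insulin receptor, rose by 5.75 and 4.71 with caffeine and by 1.79 and 1.15 with WY14643. Tat, a tyrosine transaminase raised by glucocorticoids and cAMP, rose by 3.11 and 3.35 with caffeine, and Crem, a repressor induced by cAMP, by 1.63 and 1.68. With WY14643 their values were 0.77 and 0.24 for Tat, and 0.69 and 0.11 for Crem, which did not pass in both batches. Of 15 genes tested of the cAMP list, caffeine raised 9 and lowered 0, WY14643 raised 5 and lowered 2, and 8 were higher with caffeine than with WY14643. Of all genes, caffeine raised 21.7%, WY14643 raised 15.1% and lowered 13.9%, and 18.9% were higher with caffeine directly, so the falls with WY14643 were at about the share of all genes. The immediate early genes Fos, Fosb, Junb and Dusp1 of the same list did not pass against vehicle in both batches with either chemical.

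The 250 bases before the starts of Pck1 and Igfbp1 are printed because both genes rose with caffeine and hold short motifs named for cAMP and for insulin. They are RefSeq sequence of GRCr8, 5′ to 3′, with capitals for ACGTCA in Pck1 (bases -91 to -86 before the start), the core of the cAMP response element, and for CAAAACA in Igfbp1 (bases -121 to -115), a core of insulin response sequences.
Pck1 chr3:182348322-182348571 (+ strand): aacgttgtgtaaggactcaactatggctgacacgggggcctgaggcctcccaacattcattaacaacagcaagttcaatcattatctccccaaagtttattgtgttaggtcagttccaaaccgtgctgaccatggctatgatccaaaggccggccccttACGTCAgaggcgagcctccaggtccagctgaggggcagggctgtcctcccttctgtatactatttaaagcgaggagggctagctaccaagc
Igfbp1 chr14:86261027-86261276 (+ strand): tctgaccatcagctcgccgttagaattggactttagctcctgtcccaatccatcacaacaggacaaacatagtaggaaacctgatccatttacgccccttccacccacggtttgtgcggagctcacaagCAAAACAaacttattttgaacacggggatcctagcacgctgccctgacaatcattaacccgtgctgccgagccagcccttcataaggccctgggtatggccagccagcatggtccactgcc
On either strand ACGTCA was in 2325 of 33469 promoters of this length (6.95%) and in 7 of the 17 genes of the cAMP list with a promoter in the table. CAAAACA was in 5.46% of all promoters and in 3 of those 17 genes. The cAMP list was drawn up from genes known to answer to cAMP, so its share holds no independent information on these wells.

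Genes of amino acid breakdown and the urea cycle were raised by caffeine in greater number than by WY14643. Of 23 genes tested, 11 were higher and 4 lower with caffeine than with WY14643, and caffeine raised 15 and lowered 3 while WY14643 raised 6 and lowered 6. The shares of all genes raised and lowered were 21.7% and 20.5% with caffeine and 15.1% and 13.9% with WY14643, with 18.9% higher and 20.3% lower in the direct comparison. Got1, the cytosolic aspartate transaminase, was at 9062, 7495 and 8754 CPM with caffeine in batch 1 and 3902, 5761 and 6170 CPM in batch 2. Its WY14643 wells held 123, 132 and 121 CPM and 117, 124 and 111 CPM, and its vehicle wells 126, 123 and 127 CPM and 76.9 to 102 (median 89.2) CPM. The WY14643 wells of Got1 overlapped the vehicle wells in batch 1 and lay above them in batch 2, far below caffeine in both. Ass1, which joins citrulline to aspartate, was at 4076, 4276 and 5387 CPM with caffeine in batch 1 and 3123, 5178 and 4905 CPM in batch 2, at 38.8, 29.0 and 27.6 CPM and 63.4, 49.2 and 47.4 CPM with WY14643, and at 160.4, 176 and 128 CPM and 256 to 352 (median 333) CPM with vehicle. Caffeine raised and WY14643 lowered it in every well, with a direct L2FC of 7.17 ± 0.20 and 6.37 ± 0.17. Cps1 and Asl, other enzymes of the cycle, rose with caffeine (2.29 and 2.08 for Cps1, and 3.50 and 3.57 for Asl). With WY14643 their values were -0.58 and -0.64 for Cps1, and -0.30 and -0.58 for Asl, a fall that passed for Cps1. Otc fell with both, with L2FC of -2.47 and -2.20 with caffeine and of -0.82 and -0.65 with WY14643. Hal, which breaks down histidine, rose with caffeine (1.49 and 2.49) and fell with WY14643 (-2.79 and -1.97). Tdo2 and Oat, which act on tryptophan and ornithine, rose with caffeine (3.95 and 4.85 for Tdo2, and 3.25 and 2.78 for Oat) and with WY14643 (2.68 and 2.22 for Tdo2, and 3.53 and 3.37 for Oat).

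**Figure D4:**
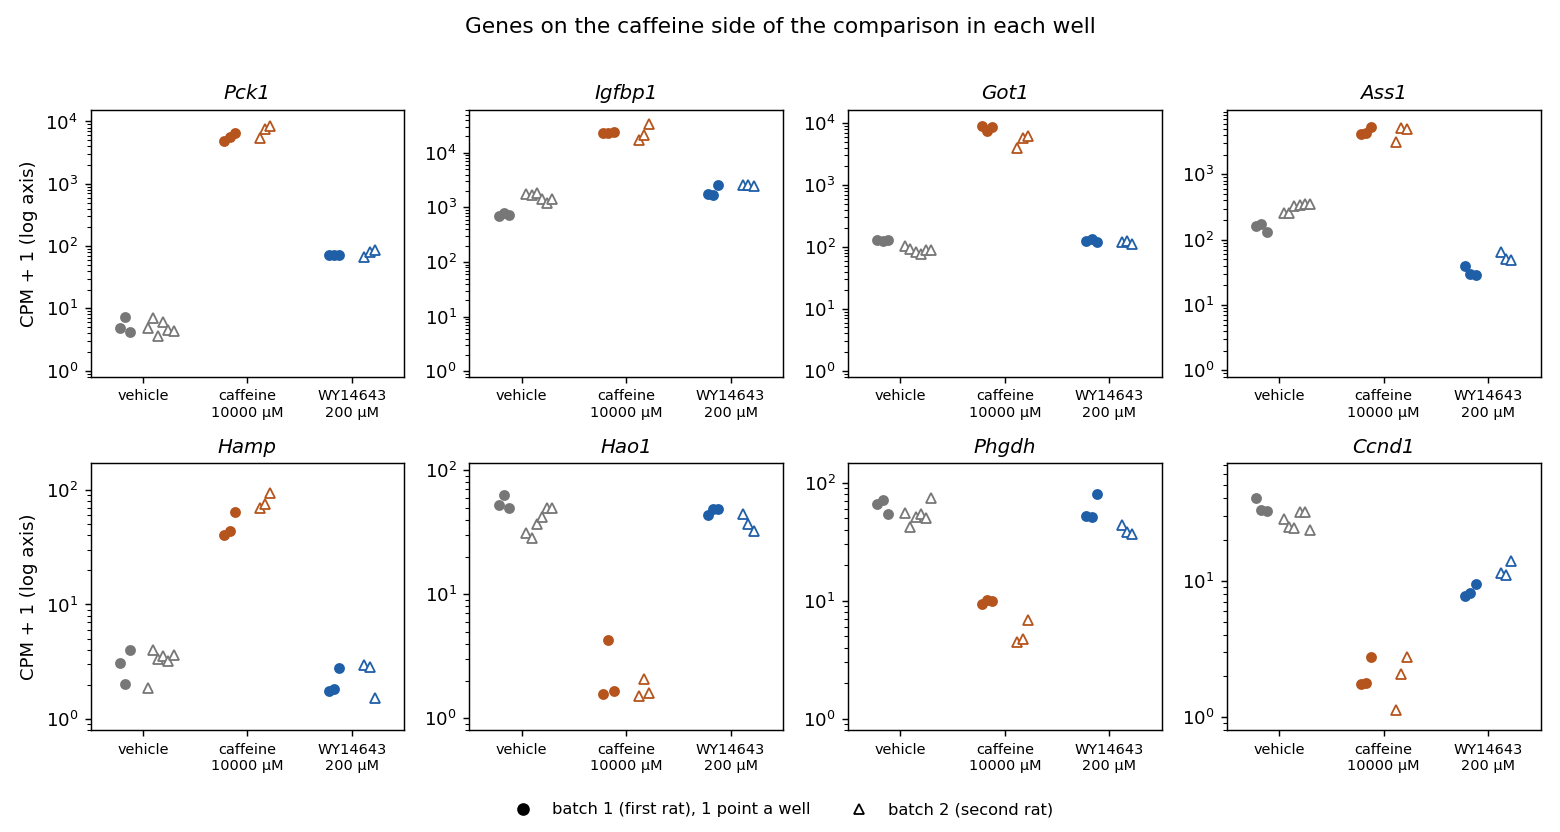
Each point is 1 well, with CPM + 1 on a log axis that differs between panels, filled circles for batch 1 and open triangles for batch 2. The caffeine wells lie above all vehicle and WY14643 wells for Pck1, Igfbp1, Got1, Ass1 and Hamp, and below them for Hao1, Phgdh and Ccnd1.

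Changes particular to caffeine by rule were those of genes that caffeine moved against both vehicle and WY14643, while WY14643 itself did not pass and stayed within an absolute L2FC of 0.5 of vehicle in both batches. Of the genes tested, 658 (6.46%) rose and 457 (4.48%) fell in this way, and the mirrored rule found 194 genes (1.9%) raised and 108 (1.06%) lowered by WY14643. Since the rule itself uses these comparisons, the values of its members are a description. Among the 8 rises named by size were those of Fst, the activin antagonist follistatin (5.96 and 5.42), of the decoy interleukin receptor Il1r2 (5.92 and 4.43), of the metallothionein Mt1 (5.56 and 4.03) and of the stress gene Gadd45b (4.43 and 4.36). Gas5 and Taf1d, which host small nucleolar RNAs in their introns, rose as well (3.81 and 3.68 for Gas5, and 2.60 and 3.47 for Taf1d), as did Ogfrl1 and the receptor kinase antagonist Spry1 (3.33 and 3.49 for Ogfrl1, and 2.41 and 3.57 for Spry1). Gas5 was at 9010, 8745 and 9795 CPM in the caffeine wells of batch 1 and 11360, 12960 and 14280 CPM in those of batch 2, and the WY14643 wells at 661, 643 and 735 CPM and 1106, 1038 and 1022 CPM overlapped the vehicle wells at 642, 685 and 632 CPM and 884 to 1071 (median 1031) CPM.

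The 8 falls named by size included Hao1, the peroxisomal oxidase of glycolate. It was at 0.567, 3.31 and 0.664 CPM with caffeine in batch 1 and 0.507, 1.06 and 0.588 CPM in batch 2, against 42.5, 47.3 and 48.0 CPM and 43.6, 35.6 and 31.3 CPM with WY14643 and 51.8, 62.1 and 48.4 CPM and 27.2 to 48.7 (median 38.5) CPM with vehicle. All caffeine wells were below all other wells, and the WY14643 wells lay just under the vehicle wells in batch 1 and overlapped them in batch 2. Also lower were the protease Ctss (-3.43 and -5.45), the monoamine oxidase Maob (-3.14 and -4.22), the transcription factor Jdp2 (-2.75 and -4.09), the receptor phosphatase Ptprs (-3.09 and -3.41) and the creatine enzyme Gamt (-2.86 and -3.37). Jdp2 was also lower than vehicle with 8 µM WY14643 (-0.47 and -0.55), by less than with caffeine. Phgdh, the first enzyme of serine synthesis, was at 8.31, 9.14 and 8.85 CPM with caffeine in batch 1 and 3.42, 3.71 and 5.88 CPM in batch 2, and at 51.6, 49.7 and 79.9 CPM and 43.0, 37.3 and 35.6 CPM with WY14643. Its vehicle wells held 65.2, 70.0 and 53.4 CPM and 41.4 to 73.0 (median 51.6) CPM. Against the vehicle wells of its own plate in batch 2, WY14643 lowered Phgdh too, by an L2FC of -0.59 (adjusted p 0.0379 by edgeR).

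On the WY14643 side the 5 rises named by size included those of Acat1 and Acadm, described above, of the chemokine Cxcl12 (4.33 and 5.20, with 0.036 and -0.31 for caffeine) and of the monoglyceride lipase Mgll (2.77 and 2.69, with 0.10 and -0.10). The 5 falls named by size were those of Cyb561 (-1.66 and -1.88), Klf6 (-1.84 and -1.68), PVR (-1.79 and -1.46), Csrp1 (-1.23 and -1.82) and the fibronectin gene Fn1 (-1.10 and -1.62). Against own-plate vehicle in batch 2, Klf6 fell with caffeine as well (-0.71), and its difference between the chemicals was 0.47 and did not pass (adjusted p 0.317 by edgeR). Genes that the chemicals moved in opposite directions against vehicle numbered 124 with caffeine higher (1.22%) and 202 with WY14643 higher (1.98%). Caffeine was higher for Ass1, for Apoa5, an activator of triglyceride clearance (direct L2FC 5.92 and 5.12), for the membrane fusion gene Stx11 (5.36 and 4.34) and for the lysine enzyme Aass (5.03 and 3.72). WY14643 was higher for Fabp1, G0s2, Slc34a2 and Inhbc. Slc34a2, a phosphate carrier, was at 191, 198 and 159 CPM and 411, 446 and 384 CPM with WY14643 and at 5.58, 5.69 and 6.08 CPM and 6.96 to 13.5 (median 8.93) CPM with vehicle. No caffeine well had more than 3 counts of it, so WY14643 was at least 302-fold and 1020-fold higher. Inhbc, an activin subunit, had a direct L2FC of -6.82 in batch 1 and was at least 83.8-fold higher with WY14643 in batch 2.

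The stress and growth lists held genes that caffeine raised and genes that it lowered, and their counts stand against 21.7% of all genes raised and 20.5% lowered by caffeine. Of 17 integrated stress response genes tested, caffeine raised 5 and lowered 7. WY14643 raised 8 and lowered 3 of them, against 15.1% and 13.9% of all genes. In the direct comparison 9 were lower and 3 higher with caffeine, against 20.3% and 18.9% of all genes. Ddit3 and Ppp1r15a, which act late in that response, rose with caffeine (3.29 and 3.31 for Ddit3, and 1.40 and 1.51 for Ppp1r15a). Asns, Mthfd2 and Psat1 of the same list, which make asparagine, folate units and serine, fell with it (-1.41 and -2.11 for Asns, -2.05 and -2.35 for Mthfd2, and -2.01 and -3.31 for Psat1), and the lipoprotein receptor gene Vldlr was lower than with WY14643 (direct L2FC -2.70 and -2.50). Of 10 endoplasmic reticulum chaperones tested, caffeine raised 2, near the share of all genes, and WY14643 raised 3, against 15.1% of all genes. In the direct comparison 2 were lower with caffeine, near the 20.3% of all genes. These were Herpud1 and Calr (direct L2FC -1.07 and -0.80 for Herpud1, and -0.85 and -0.81 for Calr). With each chemical set against the vehicle of its own plate in batch 2, the difference for Herpud1 was -0.33 and did not pass (adjusted p 0.0856 by edgeR). Of 12 p53 targets tested, caffeine raised 4 and lowered 3, and WY14643 lowered 4, with 13.9% of all genes lowered by WY14643. The median L2FC of the list with caffeine was 0.20 and 0.026. Cdkn1a, Pmaip1, Sesn1 and Btg2 rose with caffeine (1.84 and 1.69 for Cdkn1a, 1.06 and 2.11 for Pmaip1, 1.22 and 2.28 for Sesn1, and 1.58 and 1.49 for Btg2), and Gadd45a, Plk2 and Zmat3 fell (-1.14 and -1.22 for Gadd45a, -1.23 and -1.16 for Plk2, and -0.33 and -0.32 for Zmat3). In the direct comparison 6 were higher with caffeine and 1 lower (18.9% and 20.3% of all genes), and those higher included Aen and Zmat3, which fell with WY14643 (-1.15 and -0.73 for Aen, and -0.83 and -1.002 for Zmat3). The direct call of Sesn1 was kept in 11 of the 12 fits that left out 1 well. Ccnd1, the cyclin of cell cycle entry, was at 0.756, 0.778 and 1.77 CPM with caffeine in batch 1 and 0.127, 1.06 and 1.76 CPM in batch 2, at 6.67, 7.05 and 8.47 CPM and 10.4, 9.92 and 12.8 CPM with WY14643, and at 39.2, 32.1 and 31.2 CPM and 22.4 to 30.8 (median 25.6) CPM with vehicle. Both chemicals lowered Ccnd1, and every caffeine well was below every WY14643 well. Of 14 cell cycle genes tested, caffeine lowered 6 and raised 1, and WY14643 lowered 1. The proliferation genes Mki67 and Top2a were lower with caffeine than with WY14643 (direct L2FC -2.83 and -3.59 for Mki67, and -2.42 and -2.53 for Top2a). The call of Mki67 was lost in ST, with -0.88 and -1.77 (adjusted p 0.112 in batch 1 by edgeR). That of Top2a was lost against own-plate vehicle in batch 2, at -1.7 (adjusted p 0.0824 by edgeR).

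Genes of drug metabolism rose in part with both chemicals. Caffeine raised 8 of 11 tested genes of the CAR and PXR list and WY14643 raised 7. The counts of raised and lowered genes in these lists stand against shares over all genes of 21.7% and 20.5% with caffeine and 15.1% and 13.9% with WY14643. The phenobarbital-type Cyp2b2 rose by 6.47 and 6.54 with caffeine and by 8.86 and 8.56 with WY14643. Cyp2b1, its close paralog, was at least 53.2-fold higher than vehicle with caffeine and 119-fold with WY14643 in batch 1, and at least 22.8-fold and 61.6-fold in batch 2. The export pump Abcc3 rose with caffeine (2.39 and 1.48) and fell with WY14643 (-0.997 and -1.43), and Aldh1a1 did the reverse (-1.53 and -2.52 with caffeine and 2.61 and 3.32 with WY14643). Gsta2, a glutathione transferase, was lower with caffeine than with WY14643 (direct L2FC -3.74 and -3.17). Of 6 AhR targets tested, caffeine raised 1 and lowered 3. Cyp1a2, which clears caffeine in liver, was at 159, 92.2 and 192 CPM with caffeine in batch 1 and 210.0, 160.0 and 189 CPM in batch 2, at 404, 424 and 564 CPM and 513, 569 and 605 CPM with WY14643, and at 608, 586 and 407 CPM and 515 to 751 (median 663) CPM with vehicle. All caffeine wells were below all others. Aldh3a1 was lower with caffeine than with WY14643 (direct L2FC -4.36 and -5.16), and Cyp1b1 was higher, with a direct L2FC of 2.54 in batch 1 and at least 6.02-fold in batch 2. Cyp1a1 had an L2FC against WY14643 of 0.89 in batch 1 and -0.79 in batch 2, opposite signs between the rats. Of 16 NRF2 targets tested, caffeine lowered 11 and raised 1, Hmox1. In the direct comparison 9 were lower with caffeine than with WY14643, against 20.3% of all genes. Among them were Ephx1, Gsta3 and Gstp1 (direct L2FC -3.10 and -2.81 for Ephx1, -2.50 and -2.43 for Gsta3, and -2.51 and -1.99 for Gstp1).

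Among secreted proteins, Hamp, which encodes the iron hormone hepcidin, rose with caffeine. Its caffeine wells held 39.5, 43.2 and 62.9 CPM in batch 1 and 68.6, 74.6 and 93.7 CPM in batch 2, its WY14643 wells 0.758, 0.839 and 1.803 CPM and 1.98, 1.84 and 0.528 CPM, and its vehicle wells 2.09, 1.03 and 3.04 CPM and 0.872 to 2.97 (median 2.46) CPM. WY14643 and vehicle overlapped, and every caffeine well was above both. In the list of acute phase, coagulation and complement genes, caffeine raised 9 and lowered 7 of 27 tested, and WY14643 raised 13 and lowered 2. Over all genes the shares were 21.7% and 20.5% with caffeine and 15.1% and 13.9% with WY14643. The counts against vehicle in the other lists here stand against these shares too. The coagulation factor gene F5 was higher with caffeine than with WY14643 and the complement gene C3 was lower (direct L2FC 2.38 and 2.04 for F5, and -2.01 and -2.04 for C3). Of 10 bile acid genes tested, 4 were higher and 4 lower with caffeine than with WY14643, against 18.9% and 20.3% of all genes in the direct comparison. Akr1d1, a reductase of bile acid synthesis, was lower (direct L2FC -3.33 and -3.50), and the phospholipid pump Abcb4 was higher, with a direct L2FC of 1.49 in batch 1 and at least 5.67-fold in batch 2, a call kept in 7 of the 12 fits that left out 1 well. Of 11 adenosine and purine genes tested, caffeine raised 3 and lowered 5. The adenosine receptor gene Adora1 fell with both chemicals (-1.97 and -2.02 with caffeine and -1.39 and -1.14 with WY14643), the urate oxidase Uox and the nucleoside carrier Slc28a2 were lower with caffeine than with WY14643 (direct L2FC -1.21 and -2.19 for Uox, and -1.79 and -2.95 for Slc28a2), and the xanthine dehydrogenase Xdh was higher (1.33 and 1.51). Of 12 clock genes tested, caffeine raised 3, close to the share of 21.7% over all genes, and WY14643 raised 6. The clock output factor Hlf was lower and Cry2 higher with caffeine than with WY14643 (direct L2FC -2.78 and -3.18 for Hlf, and 0.75 and 1.63 for Cry2, the call of Cry2 kept in 10 of the 12 such fits), and Dbp had a direct L2FC of -3.19 in batch 1 and 0.44 in batch 2.

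Markers of other liver cells moved with caffeine. Of 7 markers of Kupffer cells and leukocytes tested, 5 fell with caffeine (Vsig4, Clec4f, Lyz2, Cd163 and Csf1r) and 1 rose (Cd14). Over all genes caffeine lowered 20.5% and raised 21.7%. The 7 markers did not pass with WY14643 in both batches. Vsig4 had 0 counts in all caffeine wells, against 2.91, 3.28 and 3.36 CPM with vehicle in batch 1, and 1 other Kupffer marker below the filter was at 0 there too in each batch. Clec4f had an L2FC against vehicle of -3.31 and -4.12. The summed level of the list was 132 to 155 CPM with caffeine, 76.4 to 103 with WY14643 and 68.4 to 98.1 with vehicle in batch 1, and 101 to 170.0, 70.1 to 79.6 and 67.7 to 83.7 CPM in batch 2, where Cd14 alone held 119, 137 and 141 CPM and 86.1, 126 and 164 CPM with caffeine. Col1a2 and Col3a1, of fibroblasts and stellate cells, fell with caffeine as well (-1.93 and -2.91 for Col1a2, and -1.96 and -2.03 for Col3a1). Their list summed to 38.3 to 48.4 and 10.0 to 15.1 CPM with caffeine. The sums were 115 to 139 and 41.4 to 58.4 CPM with WY14643 and 102 to 163 and 36.4 to 53.1 CPM with vehicle. Of its 9 measured markers, 3 were at 0 in every caffeine well of each batch. In every WY14643 well, 1 was at 0 in batch 1 and 3 in batch 2, so such zeros were not particular to caffeine. All 8 endothelial markers were below the filter, and cholangiocyte markers summed to 29.2 to 49.2 CPM over all wells. In such bulk wells fewer cells of a type and less RNA per cell cannot be told apart. The part of these cells in the fall of Ctss, a gene that macrophages also express, was not tested.

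At the lower concentrations WY14643 still raised these genes, and caffeine raised 1 gene. At 8 µM, WY14643 raised 1603 genes (15.7%) against vehicle, with L2FC of 10.68 and 10.53 for Ehhadh, and 10.89 and 10.48 for Cyp4a1. At 200 µM the values were 10.31 and 10.28 for Ehhadh, and 11.24 and 10.83 for Cyp4a1. At 8 µM it raised 72 of the 89 genes of the 7 lists. At 400 µM, caffeine raised 1 gene in both batches (0.00981% of those tested), and that gene was Pck1, with 17.2, 16.1 and 14.6 CPM in batch 1 and 17.0, 15.6 and 9.76 CPM in batch 2 (L2FC 1.88 and 1.78, adjusted p 8.9e-05 and 3.27e-06 by edgeR). Cyp4a1 did not pass with it (L2FC 0.76 and 0.66). The batch 1 wells of 400 µM caffeine differed from each other for some genes, with Kng1 at 14480, 41100 and 32570 CPM and Fga at 3039, 10950 and 8115 CPM. Some genes passed in batch 2 only, among them Phyh (L2FC 0.66, adjusted p 0.00411 by edgeR) and Cyp1a1 (L2FC 0.91, adjusted p 0.00342 by edgeR). The count of 1 gene thus depends on the requirement of both batches. No difference between the concentrations was tested.

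**Figure D5:**
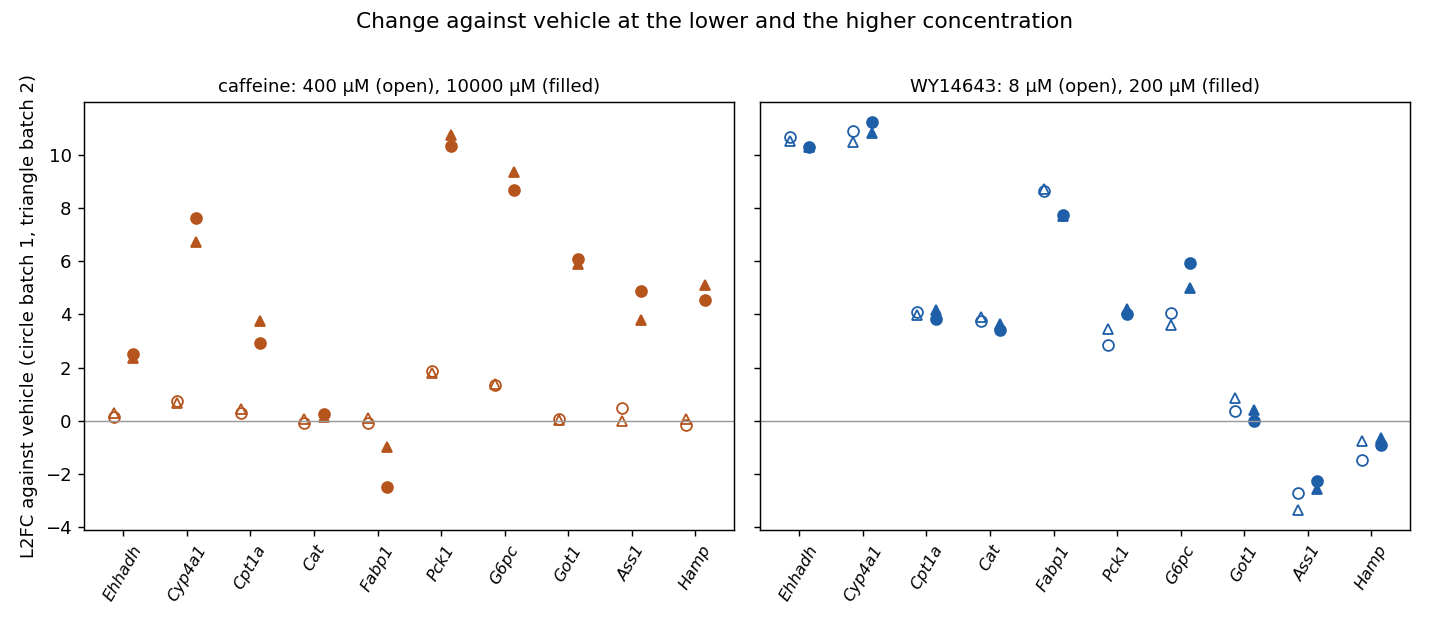
L2FC against vehicle of 10 genes at the lower (open) and the higher (filled) concentration of caffeine, left, and of WY14643, right, with circles for batch 1 and triangles for batch 2. WY14643 is about as high at 8 µM as at 200 µM for Ehhadh, Cyp4a1 and Cat, whereas caffeine at 400 µM lies near 0 except for Pck1 and G6pc.

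The same lysates run by the ST assay, with its smaller probe set, served as a technical check. In ST 828 of 1760 genes tested (47%) differed between caffeine and WY14643 in both batches. Of 1603 genes tested in both assays, 763 were called by ST, and 669 of those (87.7%) were called with the same sign by WT and 0 with the opposite sign. The median L2FC over the 51 genes of the 7 lists tested in ST was -2.25 and -2.21, with 42 of them lower and 3 higher with caffeine. Of 64 named genes called by WT and tested in ST, 2, Mki67 and Slc22a5, lost the call, with -0.32 and -0.41 in ST against -0.71 and -0.92 in WT for Slc22a5. In 10 of 24 lists the median moved by more than it differed between the batches or by more than 0.1 where that was larger. For omega hydroxylases it went from -0.95 and -1.44 over 5 genes in WT to -3.39 and -3.84 over 3 in ST. Between the 2 rats, 4033 genes were called in both batches and 33 of them had opposite signs, and the difference between the chemicals itself differed between the batches for 671 genes (6.58%).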

How the data were processed

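Lysate of each well was run by TempO-Seq with the WT and the ST probe sets. Alignment by the authors used STAR 2.5.3a and the rat build rn6, and they deposited raw read counts per probe and well, without normalization, as stated in the labels and the methods of the study. No value was changed here.

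Counts of probes with 1 symbol were added. Genes averaging 10 counts or more over the 186 wells of an assay were tested by edgeR 4.0.16 (quasi-likelihood F-test, R 4.3.3) after TMM scaling, each batch by itself with every treatment, vehicle and medium as a group, and p was adjusted over all genes tested by Benjamini-Hochberg. Wells were grouped by their labels. Intervals are 95% and cover the wells of a rat. Genes with at most 3 counts in every well of the lower group are given a lower bound against 3 counts per well. Reads are not molecules, and depth limits which low genes could be tested, and 10191 of 20946 genes were tested.

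The members, lists and tests were chosen with earlier results of these data known. Named genes are 14 genes named in advance and those of each list with the largest called difference between the chemicals (up to 3). They also include those of each fatty acid list with the largest rise or fall shared by both (up to 3). Added to these are genes moved most by caffeine (up to 8 each way), by WY14643 (up to 5) or in opposite directions (up to 4). Genes of the latter kinds needed at least 100 counts in each well of the higher group. Some genes that the rule chose are not reported here. Genes outside the rule are other members of the lists, chosen after their values were seen.

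Alternatives were DESeq2 1.42.0, RLE size factors, no filter, single probes, thinned wells, fewer wells in the fit, own-plate vehicle, an absolute L2FC of at least 1, 1 fit of both batches, wells summed to 1 sample per rat, the plate column as a replicate block, and each well left out in turn. The code was tested on simulated data. Promoters were matched by symbol in a RefSeq table of GRCr8.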

Additional observations from a re-analysis of the deposited data

Results flagged for a closer look

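In 15 of the 104 named genes the difference between caffeine and WY14643 was not the same in both rats, by edgeR's test of batch 2 minus batch 1 on the L2FC with Benjamini-Hochberg adjustment over all genes. Of the fatty acid genes, the difference moved by 0.695 for Plin2, by 1.509 for Fabp1, by -0.527 for Cyp4v3 and by -2.141 for G0s2. For Fabp1 and Plin2 the gap to WY14643 was thus narrower in batch 2, and for Cyp4v3 and G0s2 it was wider. Among genes on the caffeine side it moved by 1.567 for G6pc and by 1.047 for Spry1, which were further above WY14643 in batch 2, and by -0.842 for Ass1, by -0.627 for Got1 and by -1.352 for Aass, which were less far above it. The genes Uox (-1.014), Psat1 (-1.486), Ctss (-2.096), Jdp2 (-1.453) and Cxcl12 (-1.255) lay further below WY14643 in batch 2. Cyp1a1, with -1.715, was the only 1 of the 15 whose sign differed between the rats. Batch, animal and plate cannot be told apart in these differences.

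In the 6 vehicle wells of batch 2 a single well stood apart from the others by Dixon's test for 5 of the 104 named genes, and chance alone flags about 1 in 20. The ratio of the gap to the range was 1 for Acot1, with 1 count in 1 well and 0 in the others, 0.636 for Slc28a2, 0.629 for Hlf, 0.712 for Hamp and 0.645 for Fst. For Slc28a2, Hlf, Hamp and Fst it was the lowest well. The same well stood apart for Acot1, Slc28a2 and Fst, and other wells did for Hlf and Hamp.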

How the results depend on the processing

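Requiring an absolute L2FC of at least 1 lowered the counts of caffeine against WY14643 to 2242 in batch 1, 2675 in batch 2 and 1672 in both, of caffeine against vehicle to 2511 and 2602, of WY14643 against vehicle to 1476 and 1503, and of changes shared on separate vehicle wells in batch 2 to 668, since the stricter rule adds a condition. One fit of both batches with batch as a term called 6498 genes between the chemicals, against 4000 called in each batch, and the cause was not tested. With the wells of each treatment summed to 1 sample per rat, batch as a term and the spread between rats taken from all treatments, 5596 genes were called. RLE size factors, no filter, single probes, thinning, DESeq2 and a fit of the 21 wells kept every count within 1.5 times, with 3866 to 4141 genes called in both batches. Of these, genes higher with caffeine made up 48.2% in the reported fit and 45.3% with RLE size factors or DESeq2.

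Leaving out single wells gave 4462 to 4863 genes between the chemicals in batch 1, 5269 to 5585 in batch 2 and 3650 to 3922 in both, 4757 to 4927 and 5749 to 6168 for caffeine against vehicle, 3082 to 3547 and 3707 to 4393 for WY14643 against vehicle, and 1685 to 1826 for shared changes. With the plate column as a replicate block, the 6 wells of a batch gave 4595 and 4762 calls, 3397 in both batches, and without it, a fit added after the data were seen, 4651, 5181 and 3538. Wells of one column did not deviate together (r of -0.158 to 0.171), so the column is only a shared position. Pnpla2 and Abcb4 lost their direct call in some of these fits, as did Sesn1 and Cry2, which were called in 8, 7, 11 and 10 of the 12.

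Signs turned for Cyp1a1 in batch 2 alone (-0.789), Pex26 in batch 1 alone (-0.019), and, against own-plate vehicle, for the medians of endoplasmic reticulum chaperones (0.049) and of bile acid synthesis and transport (0.228). With each chemical set against own-plate vehicle in batch 2, 4 of 97 named genes called directly lost the call, which were Herpud1, Klf6, Top2a and Acot1, and ST, where 64 of them were tested, lost 2, Mki67 and Slc22a5. Acot1 had at most 3 counts in the vehicle wells, and its difference stayed large (-5.49 against -7.43 directly in batch 2). The plates of the chemicals differed in both batches, the concentrations were not matched, and the animals numbered 2.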
